A study of Laodelphax striatellus with 6 samples.

Results

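Protein descriptions were searched for words of the Wnt, Notch, Hedgehog, bone morphogenetic protein (BMP), Hippo, EGF receptor and fibroblast growth factor (FGF) pathways. The search found 34 of the 59004 assembled genes measured in samples of the small brown planthopper, Laodelphax striatellus, a sap-feeding rice pest. Of the 34 rows, 17 have a best hit outside planthoppers, and what organism these come from was not tested. The name of the gene group held for 8 of these 34 rows only. They are 3 Wnt ligands, the Notch receptor, a Notch-like EGF-repeat receptor, a Patched fragment, Smad4 and an FGF receptor. Another 8 rows carry a pathway word but have a different known role, such as patched domain-containing proteins and armadillo-repeat proteins. The other 18 matched only because the letters "axin" stand inside syntaxin, ataxin, leupaxin, relaxin and pentraxin, and none of these 18 is described as the Wnt scaffold Axin. Of the 19 search words, 9 found no row, among them frizzled, hedgehog, smoothened and all 3 Hippo words. The 34 rows are therefore described by what they are, and the rest of the pathways is taken from a wider list of 56 rows.

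Whole bodies of wild-type insects (genotype label WT) treated with beta-asarone, a plant phenylpropanoid, were compared with whole bodies of wild-type insects labelled control, with 3 libraries in each group. Dose, exposure time, vehicle, sex and stage are not in the labels. Nor is it stated that replicate libraries came from different insects, and the p-values below then reflect only library-to-library spread, which could be technical. Levels are in TPM (transcripts scaled to 1 fixed total per library), a length-corrected share of each library, so levels of different genes can be compared. TPM keeps no sequencing depth, so the depth is unknown and no counting interval is given. In whole bodies, fewer cells of a type and less RNA per cell cannot be told apart.

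The libraries were not separated by treatment. Spearman correlations were 0.785 to 0.838 within groups and 0.782 to 0.844 between groups. Control replicate 2 stood apart, with a median-of-ratios factor of 0.777 against 0.994 to 1.13 in the other 5 libraries. As markers of tissues, muscle rows summed to 1963 to 2975 TPM in treated insects and 2043 to 2915 TPM in controls, and gut rows to 144 to 160 TPM and 138 to 154 TPM. Nervous-system rows summed to 25.6 to 36.7 TPM in treated insects and 17 to 44 TPM in controls. No marker row of the 5 tissues searched was at 0 in all libraries.

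These pathways carry signals between cells that pattern the insect embryo and set the growth of wings, legs and other organs. Wnt ligands act through Frizzled receptors and a complex of Axin, APC and kinases that otherwise destroys Armadillo, the insect beta-catenin. Notch is cut after it binds a ligand on the next cell, and its inner part enters the nucleus. Hedgehog is received by Patched, BMP signals run through Smad proteins, and FGF receptors act through Ras and MAP kinases.

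Beta-asarone treatment was accompanied by no detectable change in any of the 19 rows that averaged 1 TPM or more, the level at which rows were tested. In limma over all 24816 tested rows, 0 of the 19 passed an adjusted p of 0.05, where 0.00403% of all tested rows passed. At an unadjusted limma p under 0.05 there were also 0 of 19, against 3.47% of all tested rows (1.99% higher and 1.47% lower in treated insects). The smallest adjusted p among the 19 was 0.98. Changes are given on the log2(TPM + 1) scale, treated minus control, which understates the change of low genes. They ran over the 19 rows from -0.23 to 0.54, with 9 above and 10 below 0 and a median of -0.000982, against a median of 0.0835 over all tested rows. The 95% limma interval held 0 for all 19 rows, and it reached a log2 change of 1 or -1 for 1 of them, leupaxin. The other 15 rows, under 1 TPM, were not tested.

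**Figure D1:**
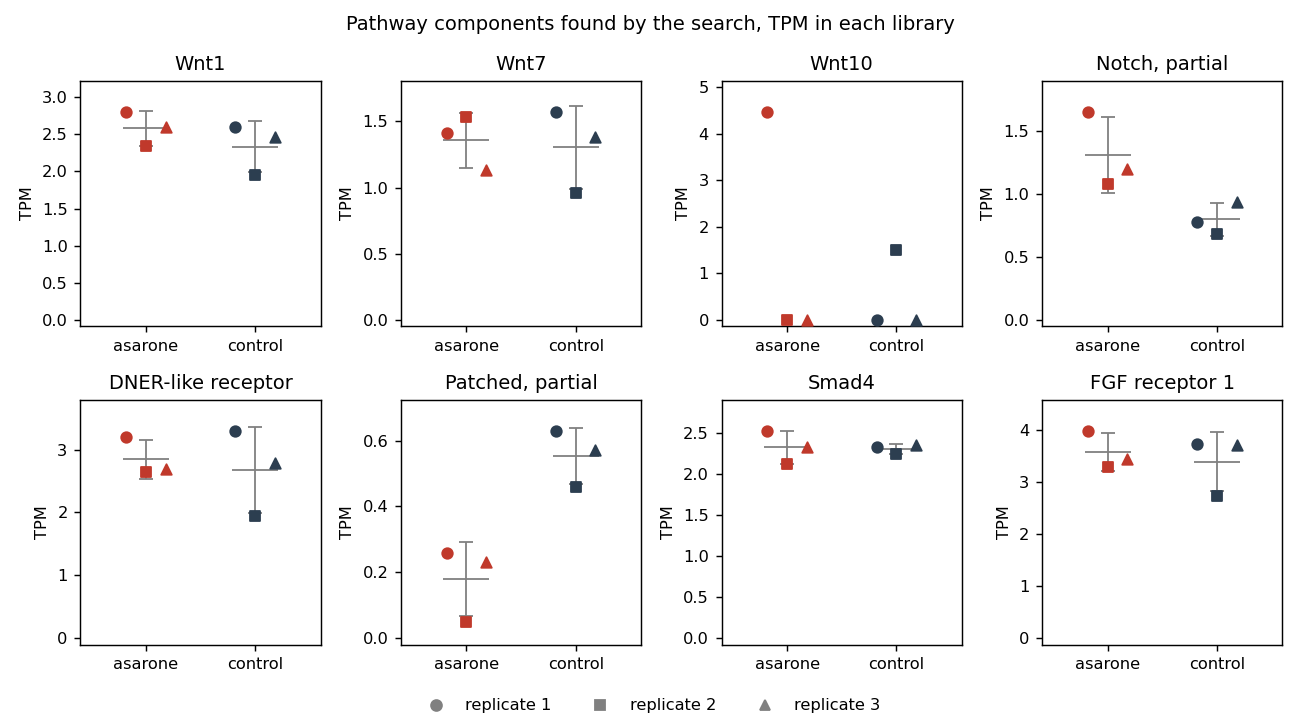
TPM (y axis) of the 8 pathway components in each library, treated insects in red and controls in dark blue, with replicates by symbol and grey lines for the mean and SD (not drawn for Wnt10). Notch and Patched are the ones whose groups do not overlap, and Wnt10 is listed at 0 in 4 libraries.

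The Wnt ligands Wnt1 and Wnt7 were found at low and similar levels in both groups. Wnt1 (TRINITY_DN12966_c0_g1, best hit the planthopper Sogatella furcifera), the counterpart of Drosophila wingless, stood at 2.80, 2.34 and 2.60 TPM in treated insects and at 2.60, 1.95 and 2.46 TPM in controls. The groups overlapped, with means of 2.58 ± 0.231 and 2.34 ± 0.342 TPM in treated and control insects (SD, n = 3 each) and a log2 change of 0.10 (95% limma interval -0.29 to 0.50, adjusted p = 0.98). Wnt7 (TRINITY_DN8656_c2_g1) was at 1.41, 1.53 and 1.13 TPM in treated insects and at 1.57, 0.96 and 1.38 TPM in controls, again with overlap (log2 change 0.04, limma interval -0.43 to 0.50, adjusted p = 0.987). Wnt10 (TRINITY_DN50968_c0_g1) was seen in 1 library of each group. It was listed at 4.46 TPM in asarone replicate 1 and at 1.5 TPM in control replicate 2, and at 0 in the other 4 libraries. Its mean of 0.99 TPM left it just below the tested level, and a listed 0 can be a failed estimate, so no fold is given.

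Notch (TRINITY_DN30475_c0_g1, described as partial, best hit the planthopper Nilaparvata lugens), the receptor that gives its pathway its name, had the smallest p of the 6 tested components. It stood at 1.65, 1.08 and 1.2 TPM in treated insects and at 0.78, 0.68 and 0.94 TPM in controls. All 3 treated libraries were above all 3 controls, which 8.66% of all tested rows showed in either direction, 4.53% with treated insects higher and 4.14% with them lower. The means were 1.31 ± 0.30 TPM in treated and 0.80 ± 0.131 TPM in control insects (SD, n = 3 each). The log2 change was 0.35 (SE 0.23, 95% limma interval -0.20 to 0.91, unadjusted p = 0.173, adjusted p = 0.98). Its mean over the 6 libraries was 1.05 TPM, higher than that of only 3.32% of tested rows, so it was tested through its level in treated insects. The groups also did not overlap after median-of-ratios or trimmed-mean scaling.

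The delta and Notch-like EGF-related receptor (TRINITY_DN971_c0_g1), whose vertebrate counterpart DNER is a transmembrane protein of neurons, was higher in level than Notch and similar in both groups. It was at 3.20, 2.64 and 2.69 TPM in treated insects and at 3.30, 1.95 and 2.79 TPM in controls. The log2 change was 0.08 (95% limma interval -0.40 to 0.55, adjusted p = 0.981), and control replicate 2 was the lowest of the 6 libraries.

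Patched, the Hedgehog receptor, was represented by a fragment (TRINITY_DN28518_c0_g3) whose best hit is the sea squirt Ciona intestinalis. It was listed at 0.26, 0.05 and 0.23 TPM in treated insects and at 0.63, 0.46 and 0.57 TPM in controls. All treated libraries were lower than all controls, also after median-of-ratios and trimmed-mean scaling. At a mean of 0.37 TPM it was below the tested level. With no filter on low values its log2 change was -0.40 (SE 0.15, limma unadjusted p = 0.0368, adjusted p = 0.983). Among rows under 1 TPM, 12.3% of those with a best hit outside planthoppers and 3.08% of those with a planthopper best hit were lower in all treated libraries than in all controls.

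Smad4, the Smad that BMP and activin signals share, and the FGF receptor had overlapping groups and similar means. Smad4 (mothers against decapentaplegic homolog 4, TRINITY_DN9541_c0_g1) was at 2.53, 2.12 and 2.33 TPM in treated insects and at 2.33, 2.24 and 2.35 TPM in controls. Its log2 change of 0.01 had a 95% limma interval of -0.35 to 0.37 (adjusted p = 0.997). The highest library was 1.19 times the lowest, the smallest such ratio among the tested rows found by the search, shared with ataxin-10. FGF receptor homolog 1 (TRINITY_DN6711_c0_g1), a receptor tyrosine kinase, had the highest level of the 8 components. It was at 3.99, 3.30 and 3.45 TPM in treated insects and at 3.73, 2.74 and 3.71 TPM in controls (log2 change 0.07, limma interval -0.35 to 0.48, adjusted p = 0.982).

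In order of their mean over the 6 libraries the 8 components were the FGF receptor (3.49 TPM), the Notch-like EGF-related receptor (2.76), Wnt1 (2.46), Smad4 (2.32), Wnt7 (1.33), Notch (1.05), Wnt10 (0.99) and the Patched fragment (0.37). Neighbours in this order overlapped in their library values, except Smad4, all of whose libraries were above those of Wnt7. The median tested row had 2.86 TPM, so the FGF receptor alone of the 8 was above it. All 6 tested components had a log2 change above 0, as did 62.8% of all tested rows. Smad4 and Wnt7 were on the other side of 0 under each of the 3 other scalings (median-of-ratios, trimmed-mean, quantile), the FGF receptor after median-of-ratios and quantile scaling, and the Notch-like EGF-related receptor after quantile scaling. All 4 were also below 0 without control replicate 2, at -0.0734 for Wnt7, -0.0076 for Smad4, -0.0464 for the FGF receptor and -0.074 for the Notch-like EGF-related receptor. Smad4 was below 0 without asarone replicate 1 (-0.0367) and Wnt7 without asarone replicate 2 (-0.0146). Wnt1 and Notch stayed above 0 in all 17 alternatives in which they were tested.

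**Figure D2:**
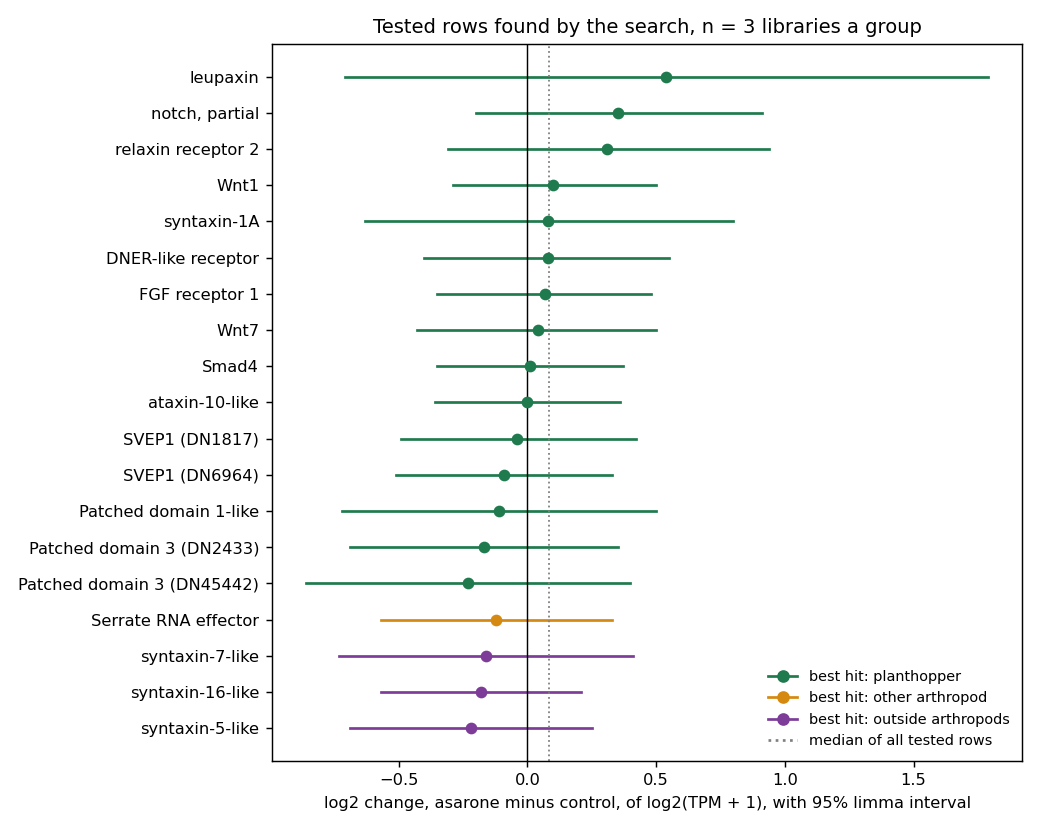
Log2 change of log2(TPM + 1), treated minus control (x axis), with the 95% limma interval, for the 19 tested rows (y axis), coloured by the best-hit class. All 19 intervals hold 0, and the 4 rows with a best hit outside planthoppers lie below 0.

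The rows that share a pathway word but not a pathway role were lower by mean TPM in treated insects in 8 of 8 cases. The groups overlapped in all 8, where 8.25% of all rows above 0 did not overlap. Of these rows 5 have a best hit outside planthoppers, a class in which 71.7% of all tested rows were lower by mean. The other 3 have a planthopper best hit, where 32.3% were lower. Of the 8 rows only 4 reached the tested level, while both shares are of tested rows. Nothing particular to the 8 rows was tested. The patched domain-containing proteins are membrane proteins related to Patched. Patched domain 3 (TRINITY_DN2433_c0_g1) was the most abundant, at 3.89, 4.42 and 3.49 TPM in treated insects and at 6.19, 3.53 and 4.17 TPM in controls. The groups overlapped (log2 change -0.17, SE 0.22, limma adjusted p = 0.98), and control replicate 1 held the highest value. Its companion row of the same description (TRINITY_DN45442_c0_g1) was at 1.12, 0.64 and 0.92 TPM in treated insects and at 1.73, 0.83 and 1.17 TPM in controls (log2 change -0.23, limma adjusted p = 0.98). It passed the tested level through the controls, with means of 0.893 TPM in treated and 1.24 TPM in control insects. The groups overlapped in the deposited TPM, but all treated libraries were lower than all controls after median-of-ratios and trimmed-mean scaling. Patched domain 1 (TRINITY_DN18202_c0_g1) was at 3.87, 2.05 and 2.42 TPM in treated insects and at 3.91, 2.26 and 2.97 TPM in controls. For this gene the replicate 1 libraries of both groups were the high ones (log2 change -0.11, limma adjusted p = 0.98). Without control replicate 1 the log2 change was 0.0234 for the first of these rows and 0.0419 for patched domain 1, and without asarone replicate 2 it was 0.0324 for patched domain 1.

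The other 5 rows of this kind were near or below the tested level. The Serrate RNA effector (TRINITY_DN12511_c0_g1, best hit a spider), an RNA-processing factor unrelated to the Notch ligand Serrate, was at 1.05, 1.05 and 1.11 TPM in treated insects and at 1.10, 1.29 and 1.37 TPM in controls (limma adjusted p = 0.98 for a log2 change of -0.12). The single overlap was between asarone replicate 3 and control replicate 1. Notchless, a ribosome-assembly factor, averaged 0.80 ± 0.215 TPM in treated and 0.847 ± 0.142 TPM in control insects (SD, n = 3 each). The armadillo-like protein ARMH3 had 0.803 ± 0.140 and 1.06 ± 0.274 TPM, ARMC8 had 0.30 ± 0.140 and 0.423 ± 0.0493 TPM, and the endocytic adaptor EPS15-like 1 had 0.393 ± 0.358 and 0.417 ± 0.164 TPM in treated and control insects (SD, n = 3 each).

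Among the 9 tested rows that matched through the letters "axin", leupaxin had both the highest level and the largest log2 change. Leupaxin (TRINITY_DN7223_c0_g1) is a LIM-domain adaptor of the paxillin family, which links cell adhesions to the cytoskeleton. It was at 18.87, 7.87 and 7.76 TPM in treated insects and at 14.79, 4.59 and 4.69 TPM in controls. Replicate 1 was by far the highest library of both groups, and the groups overlapped. The log2 change was 0.54 (SE 0.52, 95% limma interval -0.71 to 1.79, adjusted p = 0.98). The row of the leupaxin isoform X1 (TRINITY_DN20222_c0_g1), which may share reads with it, was at 2.27, 0.93 and 0.80 TPM in treated insects and at 0.93, 0.24 and 0 TPM in controls, with replicate 1 again the highest in both groups. It was below the tested level, and with no filter its log2 change was 0.75 (SE 0.34, limma adjusted p = 0.983). The muscle markers also summed highest in replicate 1, at 2975 TPM in asarone replicate 1 and 2915 TPM in control replicate 1, against 1963 to 2583 TPM in the other 4 libraries. Replicate 1 was also the highest library of both groups for the summed nervous-system markers (36.7 TPM in asarone and 44 TPM in control replicate 1), the yolk and eggshell markers (27.2 and 32.6 TPM) and the sperm and cilium markers (46.6 and 54 TPM). The gut markers went the other way, with replicate 1 the lowest library of both groups (144 TPM in asarone and 138 TPM in control replicate 1). The yolk and eggshell set held 3 rows, with chorion peroxidase the highest at a mean of 17.6 TPM. The highest nervous-system row was CUGBP Elav-like family member 1 (mean 5.66 TPM). Rows entered these sets by description alone, so the sums may not measure tissue content. The part of these tissues in the leupaxin values was not tested.

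**Figure D3:**
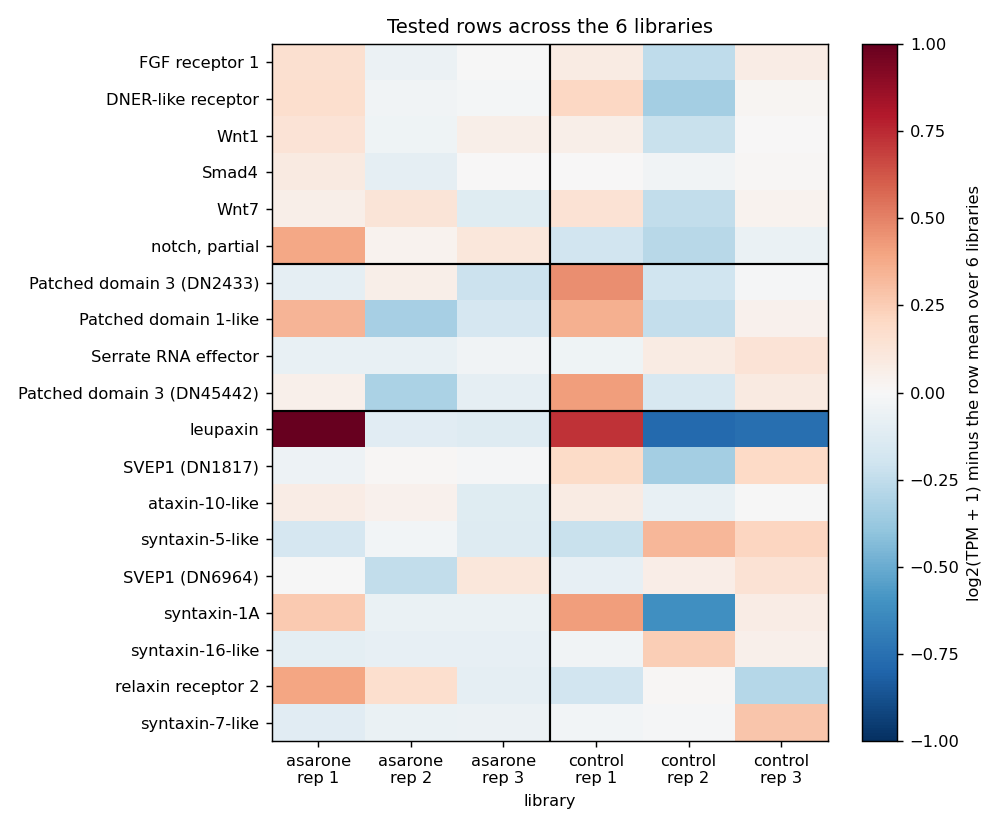
Log2(TPM + 1) minus the row mean over 6 libraries (colour) for the 19 tested rows, with treated libraries left of the controls and black lines between pathway components (top), rows with a pathway word only (middle) and rows matched through "axin" (bottom). Leupaxin stands out in both replicate 1 libraries, and control replicate 2 is the lowest control library for 13 of the 19 rows.

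Replicate 1 was the highest library of its group in both groups for 8 of the 15 tested rows with a planthopper best hit (53.3%), against 42.5% of all tested rows with a planthopper best hit. Control replicate 2 was the lowest control for 13 of these 15 rows (86.7%), against 68.2% of all tested planthopper-hit rows. Leaving out control replicate 2 changed the split of the 19 log2 changes to 4 above and 15 below 0, and leaving out control replicate 1 to 13 above and 6 below. It was 6 above and 13 below 0 under median-of-ratios, 7 and 12 under trimmed-mean, and 5 and 14 under quantile scaling. Over the 19 tested rows the highest library was 1.19 to 4.11 times the lowest, with a median ratio of 1.65.

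The 7 syntaxins, membrane-fusion proteins of vesicle traffic, had 6 rows lower and 1 higher by mean TPM in treated insects. Their summed level was 8.84, 8.47 and 8.09 TPM in treated insects and 9.54, 10.4 and 10.3 TPM in controls, with no overlap. Of the 7, 6 have a best hit outside planthoppers. Among all tested rows of that class 71.7% were lower by mean, and 17.3% were lower in all treated libraries than in all controls. Among rows of that class under 1 TPM, 12.3% were lower in all treated libraries than in all controls. Of the 7 syntaxin rows 4 were tested. Syntaxin-16 (TRINITY_DN51137_c0_g1) was at 1.56, 1.59 and 1.58 TPM in treated insects and at 1.67, 2.25 and 1.84 TPM in controls (log2 change -0.18 with an SE of 0.16, limma adjusted p = 0.98). Syntaxin-7 (TRINITY_DN35137_c0_g1) was at 0.84, 0.90 and 0.91 TPM and 0.95, 0.98 and 1.42 TPM in treated and control insects (log2 change -0.16, limma adjusted p = 0.98). With means of 0.883 TPM in treated and 1.12 TPM in control insects, it was tested through its control level. Both rows did not overlap in the deposited TPM but did after median-of-ratios and trimmed-mean scaling. Syntaxin-6 (TRINITY_DN49319_c0_g1), at 0.34, 0.26 and 0.30 TPM in treated insects and 0.55, 0.50 and 0.54 TPM in controls, did not overlap under any of the 3 scalings and was below the tested level. Syntaxin-5 (TRINITY_DN2704_c0_g1) was at 2.63, 2.99 and 2.72 TPM in treated insects and at 2.5, 4.13 and 3.74 TPM in controls, with overlap through control replicate 1 (log2 change -0.22, limma adjusted p = 0.98). Syntaxin-1A (TRINITY_DN37722_c0_g1), the neuronal syntaxin and the only one with a planthopper best hit, was at 2.31, 1.64 and 1.63 TPM in treated insects and at 2.69, 0.80 and 1.9 TPM in controls (log2 change 0.08, limma adjusted p = 0.984). The remaining syntaxins 18 and 1A (best hit a spider) averaged 0.553 ± 0.148 and 0.513 ± 0.0416 TPM in treated insects, and 0.593 ± 0.212 and 0.67 ± 0.210 TPM in controls (SD, n = 3 each).

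The other matches through "axin" showed overlap between the groups, apart from ataxin-2. Ataxin-2 (TRINITY_DN26322_c0_g1), an RNA-binding protein, was at 0.47, 0.58 and 0.44 TPM in treated insects and at 0.63, 0.66 and 0.85 TPM in controls, and its groups overlapped after the other 2 scalings. Ataxin-10 (TRINITY_DN16912_c0_g1) had the same mean of 3.54 TPM in both groups, with an SD of 0.319 in treated and 0.25 in control insects (n = 3 each, limma adjusted p = 0.999). Ataxin-7, of the SAGA chromatin complex, averaged 0.457 ± 0.133 TPM in treated and 0.377 ± 0.115 TPM in control insects. The relaxin receptor (TRINITY_DN18191_c0_g1), a receptor for relaxin-like hormones, was at 1.61, 1.23 and 0.87 TPM in treated insects and at 0.74, 1.01 and 0.63 TPM in controls. Its log2 change was 0.31 (SE 0.26, limma adjusted p = 0.98), and asarone replicate 3 lay within the control range. It passed the tested level through the treated insects, with means of 1.24 TPM in treated and 0.793 TPM in control insects. The 2 rows described as SVEP1, an extracellular protein with EGF and pentraxin domains, were at 6.82 ± 0.181 and 7.13 ± 1.61 TPM (TRINITY_DN1817_c0_g1) and at 2.41 ± 0.426 and 2.61 ± 0.289 TPM (TRINITY_DN6964_c0_g1) in treated and control insects (SD, n = 3 each). The 3 syntaxin-binding rows had means of 0.25 to 0.56 TPM over the 6 libraries, and 2 of them come from a single assembled component.

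The direction of the 34 rows differed by the species of the best hit. Of the 17 rows whose best hit is another species than a planthopper, 15 were lower and 2 higher by mean TPM in treated insects. All 7 with a best hit outside the arthropods were lower. Of the 17 rows with a planthopper best hit, 11 were higher and 5 lower, a split that became 8 and 9 with median-of-ratios factors, 10 and 7 with trimmed-mean factors, and 9 and 8 without control replicate 2 and asarone replicate 2. The higher count was 5 without asarone replicate 1 and 6 without control replicate 2. The rows with another best hit were lower in 15 of 17 cases under both scalings, in 14 without control replicate 2 and asarone replicate 2, and in 12 to 15 on leaving out any 1 library. All tested rows were divided in the same way. By mean TPM, 71.7% of the 2120 tested rows with another best hit and 32.3% of the 12248 with a planthopper best hit were lower in treated insects. Without control replicate 2 these shares were 71.6% and 58.1%. Only 4 of the 17 rows found by the search with another best hit were tested, against 15 of the 17 with a planthopper best hit. For the former, the comparison sets mostly untested rows beside tested ones. What organism the rows with distant best hits come from was not tested.

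**Figure D4:**
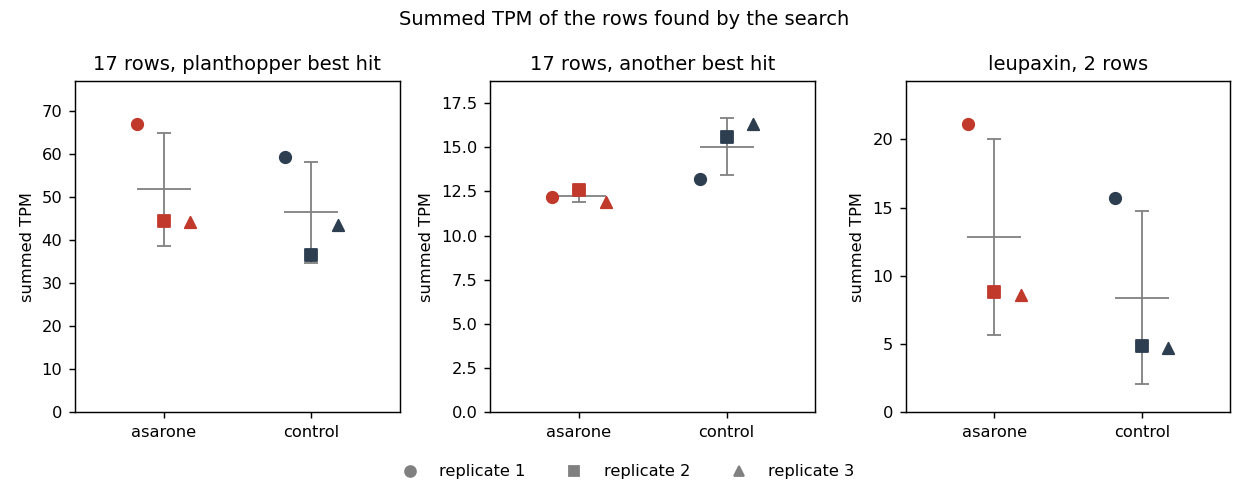
Summed TPM per library (y axis) of the 17 rows with a planthopper best hit, the 17 rows with another best hit and the 2 leupaxin rows, treated insects in red and controls in dark blue, with replicates by symbol and grey lines for mean and SD. The rows with another best hit sum to 11.9 to 12.6 TPM in treated insects and 13.2 to 16.3 TPM in controls, and replicate 1 is high in the other panels.

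Treated and control libraries were fully separated in 6 of the 34 rows (17.6%), 1 higher and 5 lower in treated insects. Of all rows above 0, 8.25% were separated, 3.61% higher and 4.64% lower. Median-of-ratios and trimmed-mean scaling each left 1 higher and 3 lower of the 34 (11.8%), against 8.9% and 8.86% of all rows above 0. All 5 of the lower rows in the deposited TPM had best hits outside planthoppers. Summed over its rows, the rows with a planthopper best hit were at 66.9, 44.4 and 44.1 TPM in treated insects and at 59.4, 36.5 and 43.6 TPM in controls, with overlap.

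The wider list of other pathway genes held 56 rows, of which 35 were tested. None passed the adjusted threshold, and 0 of 35 had an unadjusted limma p under 0.05, against 3.47% of all tested rows. By log2 change 20 were above and 15 below 0, with a median of 0.0436, against 0.0835 over all tested rows. Full separation of the groups was found in 4 of the 35 (11.4%), against 8.66% of all tested rows. Over all 56 rows it was 12.5%, 5 higher and 2 lower, against 8.25% of all rows above 0. Below the tested level, rows of MAP kinase kinase 1 and a ras-like protein were higher in all treated libraries, and striatin Pro11 was lower. These rows stayed separated after median-of-ratios and trimmed-mean scaling. MAP kinase kinase 1 was at 1.61, 0.44 and 0.96 TPM in treated and 0.22, 0 and 0 TPM in control insects. The ras-like protein was at 0.35, 0.34 and 0.31 TPM against 0.15, 0.12 and 0.15 TPM. Both have best hits outside planthoppers, where 1.4% of rows under 1 TPM were higher in all treated libraries. Striatin Pro11 (mean 0.49 TPM) has a planthopper best hit, where 3.08% of rows under 1 TPM were lower in all treated libraries. The patterns for this list also caught rows with another role, such as the splicing factor beta-catenin-like protein 1 and the mitochondrial rhomboid protease, and these were left in the counts.

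The BMP and activin list held 7 rows, of which 4 were higher and 3 lower by mean in treated insects. Tolloid-like protein 1 (TRINITY_DN4191_c0_g1), a protease that frees BMP ligands from their antagonists, was at 4.66, 3.54 and 3.56 TPM in treated insects and at 3.43, 2.35 and 3.23 TPM in controls. All treated libraries were above all controls, also after both scalings (log2 change 0.30, SE 0.19, limma adjusted p = 0.98). Twisted gastrulation (TRINITY_DN36_c0_g1), which binds BMP ligands, was at 16.52, 15.47 and 15.74 TPM in treated insects and at 14.80, 12.92 and 14.46 TPM in controls. Its groups did not overlap in the deposited TPM but did after both scalings (log2 change 0.17, SE 0.13, limma adjusted p = 0.98). The BMP ligand protein 60A (TRINITY_DN3022_c0_g1), glass bottom boat in Drosophila, was at 6.59, 6.24 and 5.65 TPM in treated insects and at 6.49, 4.16 and 5.77 TPM in controls, with overlap (log2 change 0.16, limma adjusted p = 0.98). Of the 5 tested rows 3 were above 0. The 2 below were rows described as TGF-beta-induced protein ig-h3, an extracellular matrix protein, at log2 changes of -0.18 (TRINITY_DN23258_c0_g1) and -0.14 (TRINITY_DN13745_c0_g2). The best hit is the planthopper Nilaparvata lugens for the former and Crassostrea virginica for the latter. Of all tested rows with a best hit outside planthoppers, 71.2% were below 0. The membrane-bound proteoglycan glypican-6 (TRINITY_DN43248_c0_g1), below the tested level, averaged 0.52 ± 0.491 TPM in treated and 1.10 ± 0.478 TPM in control insects (SD, n = 3 each).

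In the Notch list 4 of 5 tested rows were above 0 and 1 below, and its 2 gamma-secretase genes were its most abundant rows. The gamma-secretase subunit pen-2 (TRINITY_DN339_c0_g1) averaged 17.9 ± 1.74 TPM in treated and 17.4 ± 1.55 TPM in control insects, and presenilin-1 (TRINITY_DN11765_c0_g2), the protease of that complex, 13.6 ± 2.81 and 13.1 ± 1.88 TPM (SD, n = 3 each). Both had a log2 change of 0.04, with 95% limma intervals of -0.30 to 0.39 and -0.42 to 0.51. Fringe (TRINITY_DN206_c0_g1), which adds sugars to Notch, was at 7.19 ± 0.557 TPM in treated and 6.67 ± 2.33 TPM in control insects, and ADAM10 (TRINITY_DN8548_c0_g1), which makes the outer cut of Notch, at 2.80 ± 0.364 and 3.01 ± 0.820 TPM (SD, n = 3 each). The ubiquitin ligase mind bomb (TRINITY_DN6334_c0_g1), which activates Notch ligands, was at 1.79, 1.80 and 1.93 TPM in treated insects and at 1.69, 1.49 and 1.75 TPM in controls. These values did not overlap in the deposited TPM but did after both scalings (log2 change 0.10, SE 0.15, limma adjusted p = 0.98).

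**Figure D5:**
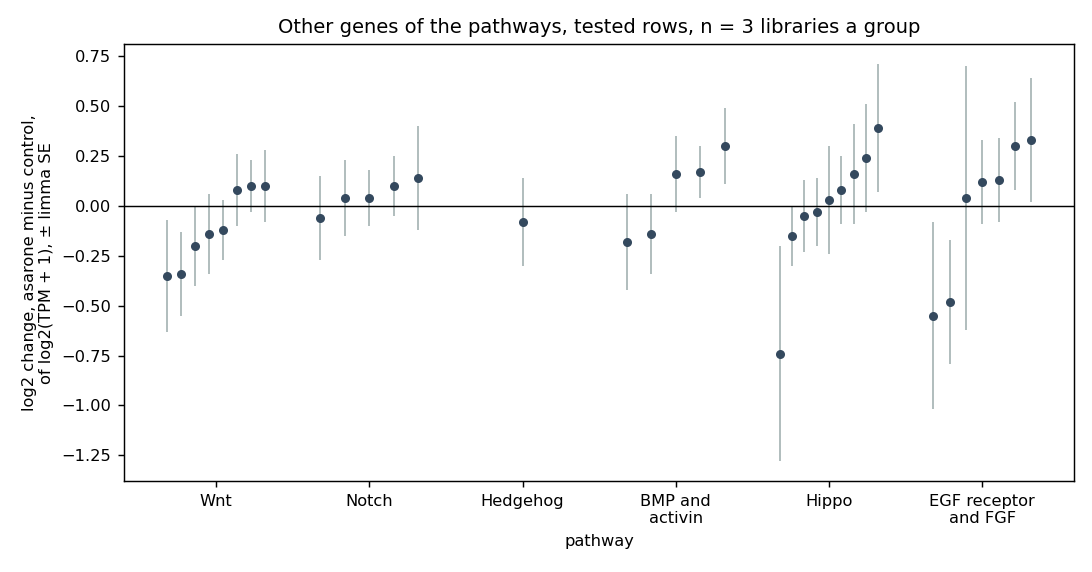
Log2 change of log2(TPM + 1), treated minus control (y axis), with the limma SE, for the 35 tested rows of the wider list, by pathway (x axis) and sorted within each pathway. None passed the threshold, and the lowest, a scribble row at -0.74, has 1 treated library listed at 0.

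In the Wnt list 3 of 8 tested rows were above 0 and 5 below, where 62.8% of all tested rows were above 0. Casein kinase I-like (log2 change -0.14, best hit Stylophora pistillata) and beta-catenin-like protein 1 (-0.20, best hit Colletes gigas) were among those below. Their best hits are outside planthoppers, where 71.2% of tested rows were below 0. The rest of those below have a planthopper best hit, where 29.7% of tested rows were below 0. The lowest log2 changes were those of 2 related co-repressors that act with the pathway's transcription factor. Transducin-like enhancer protein 4 (TRINITY_DN27355_c0_g1) was at 1.97, 1.74 and 2.05 TPM in treated insects and at 3.66, 2.72 and 1.91 TPM in controls (log2 change -0.34 with an SE of 0.21, limma adjusted p = 0.98). Its relative groucho (TRINITY_DN43875_c0_g1) was at 0.63, 1.06 and 0.89 TPM in treated insects and at 0.71, 1.94 and 1.64 TPM in controls, with overlap (log2 change -0.35, SE 0.28, limma adjusted p = 0.98). At 0.86 TPM in treated and 1.43 TPM in control insects on average, groucho passed the tested level through the controls. Dishevelled (TRINITY_DN15135_c0_g1), which relays the signal from Frizzled, was at 2.70, 2.81 and 2.75 TPM in treated insects and at 3.41, 2.67 and 3.18 TPM in controls. Its groups overlapped in the deposited TPM through control replicate 2, and all treated libraries were lower than all controls after median-of-ratios and trimmed-mean scaling. In the deposited TPM the log2 change was -0.12 (SE 0.15, limma adjusted p = 0.98). APC (TRINITY_DN7188_c0_g1), of the complex that destroys beta-catenin, was at 2.95 ± 0.155 and 2.77 ± 0.596 TPM in treated and control insects, and the Wnt-binding kinase Dnt (TRINITY_DN3249_c0_g1), the most abundant row of the list, at 6.46 ± 0.200 and 5.96 ± 0.414 TPM (SD, n = 3 each).

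In the EGF receptor and FGF list 5 of 7 tested rows were above 0, against 62.8% of all tested rows. The lowest was a row of inactive rhomboid protein 1 (TRINITY_DN20751_c0_g3), whose relatives act on EGF ligands, at 1.5, 0.48 and 0 TPM in treated insects and at 0.94, 0.72 and 2.45 TPM in controls (log2 change -0.55, limma adjusted p = 0.98). Its mean of 1.01 TPM passed the tested level through the controls, and the groups overlapped. Rows of the same description below the tested level were higher by mean in treated insects. TRINITY_DN20751_c0_g1 averaged 0.317 TPM in treated and 0.277 TPM in control insects. TRINITY_DN20751_c0_g2, listed at 0 in most libraries, averaged 0.713 and 0.34 TPM. The GTPase HRas (TRINITY_DN4058_c0_g1) was at 15.42, 13.64 and 12.28 TPM in treated insects and at 13.48, 7.79 and 12.39 TPM in controls (log2 change 0.30 with an SE of 0.22, limma adjusted p = 0.98). It overlapped in the deposited TPM and was higher in all treated libraries after both scalings. The adaptor Grb2 (TRINITY_DN2431_c0_g1) averaged 7.42 ± 1.66 and 5.92 ± 2.32 TPM, and the MAP kinase kinase Dsor1 (TRINITY_DN2133_c0_g1) 4.02 ± 0.420 and 3.66 ± 1.03 TPM in treated and control insects (SD, n = 3 each). The Ras inhibitor Spred1 (TRINITY_DN27848_c0_g1) was at 12.59, 5.19 and 9.54 TPM in treated insects and at 13.46, 9.98 and 14.29 TPM in controls. It was lower in all treated libraries after both scalings, but not in the deposited TPM (log2 change -0.48 with an SE of 0.31, limma adjusted p = 0.98).

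The Hippo and Hedgehog pathways were seen through the wider list. Of 9 tested Hippo rows 5 were above and 4 below 0. The MOB1 kinase activator (TRINITY_DN6616_c0_g1), partner of the kinase Warts, averaged 10.2 ± 2.05 TPM in treated and 8.67 ± 2.83 TPM in control insects (SD, n = 3 each). A further MOB1 row (TRINITY_DN7116_c0_g1, best hit Pseudomyrmex gracilis) had 2.04 ± 0.186 and 2.13 ± 0.397 TPM, with a log2 change of -0.03. Kibra (TRINITY_DN20135_c0_g1), an upstream activator, had 2.03 ± 0.402 and 2.05 ± 0.888 TPM, and the TEAD factor TEF-1 (TRINITY_DN16037_c0_g1), the DNA-binding partner of Yorkie, 2.27 ± 0.464 and 1.97 ± 0.764 TPM. The polarity protein lethal(2) giant larvae (TRINITY_DN15249_c0_g1), the most abundant row of the list, had 13.1 ± 1.53 and 14.6 ± 1.24 TPM (log2 change -0.15 with an SE of 0.15, limma adjusted p = 0.98). Its partner scribble (TRINITY_DN15243_c0_g1) varied most, at 0, 2.55 and 1.79 TPM in treated insects and 2.13, 1.65 and 4.58 TPM in controls (limma adjusted p = 0.98). A further scribble row (TRINITY_DN8924_c0_g1), below the tested level, was higher by mean in treated insects, at 0.713 TPM against 0.607 TPM in controls. Suppressor of fused (TRINITY_DN20241_c0_g1), which restrains the Hedgehog transcription factor, was at 2.09, 1.68 and 1.28 TPM in treated insects and at 1.54, 1.45 and 2.55 TPM in controls, with overlap (log2 change -0.08, SE 0.22, limma adjusted p = 0.984).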

How the data were processed

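Poly(A) RNA of whole insects was sequenced from strand-marked libraries, per the labels' protocols. Tools listed, without roles, per the submitters' processing notes are HISAT2 2.0.4, StringTie 1.3.4d, cutadapt 1.9, DESeq2 and edgeR, with build and quantifier not given in the sources used here. A single table deposited by the authors carries FPKM in its name, yet every library sums to 1000000 within rounding, so its values were read as TPM. The 2 deposited columns of group means were not used. Rows that share reads or split a gene are uncertain, and an exact 0 can be a failed estimate.

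Libraries were grouped by title. Between any 2 libraries 0.317% to 2.11% of values were identical, so none were merged. Rows averaging 1 TPM or more over the 6 libraries were fitted together in limma 3.58.1 (R 4.3.3; trend and robust, two-sided) on log2(TPM + 1), with Benjamini-Hochberg adjustment over all 24816 rows. The procedure was tested on simulated data with independent noise and no shift of whole libraries, so a library such as control replicate 2 was not covered. Members and lists were chosen with earlier results of these data known, and roles were assigned from descriptions alone. Named rows were, per pathway, the 3 most abundant tested members, the 2 with the smallest p, and any with p under 0.05 and no overlap between groups. From the wider list they were the most abundant row and the row with the smallest p. Alternatives varied the pseudocount, filter, scaling, moderation, replicate block, libraries and row merging. Counts by best hit were added after seeing the data. Other rows were named after their values were seen, to account for the list. Figures used matplotlib 3.10.9.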

Additional observations from a re-analysis of the deposited data

How the results depend on the processing

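The count of rows found by the search that passed the threshold was 0 in the main setting and in all 18 alternatives. With no filter 1 of the 34, Patched, had an unadjusted limma p under 0.05, against 1888 of all 58378 rows. Whether the replicate numbers pair the libraries was not settled. Deviations of same-numbered libraries correlated at 0.157, 0.0814 and -0.035, and those of differently numbered libraries at -0.139 to 0.0613. With the replicate block 1 of the 19, leupaxin, had an unadjusted limma p under 0.05 (unadjusted p = 0.0208, adjusted p = 0.912), against 1039 of all 24816 tested rows. At the adjusted threshold 0 of all tested rows passed with the block, against 1 without it. Replicates 1 and 2 of each group correlated best with their own number, and replicates 3 did not. Over all rows the count of 1 became 0 when the pseudocount was 0.1, when rows were unfiltered or had to average 5 TPM, under the 3 other scalings, without any 1 library (0 to 0) and without control replicate 2 and asarone replicate 2. The tested rows' median log2 change minus that of all tested rows was -0.0845. It was 0.163 at a minimum of 5 TPM, where 2 of them were tested, and -0.134 to -0.041 on leaving out 1 library.

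Of the 10 named rows in the sensitivity runs, 4 kept one direction throughout: Wnt1, Notch, the Serrate RNA effector and a patched domain 3 row. Their sizes moved: Wnt1 from 0.0186 without control replicate 2 to 0.162 without control replicate 1 (0.105 as reported), Notch from 0.252 without asarone replicate 1 to 0.637 with a pseudocount of 0.1 (0.355), the Serrate RNA effector from -0.205 with that pseudocount to -0.0834 without control replicate 3 (-0.121), and the patched domain 3 row from -0.41 with that pseudocount to -0.0818 without control replicate 1 (-0.233). Direction changed for Wnt7 (-0.0161 with median-of-ratios, -0.00178 with trimmed-mean and -0.0192 with quantile scaling, and -0.126 without control replicate 2 and asarone replicate 2), for Smad4 (-0.0719, -0.0526 and -0.0733 with these scalings) and for the FGF receptor (-0.0168 with median-of-ratios and -0.0241 with quantile scaling, and -0.00236 without both libraries). It changed for the Notch-like EGF-related receptor (-0.0011 with quantile scaling and -0.0363 without both libraries). On leaving out 1 library the log2 change ranged from -0.0734 to 0.122 for Wnt7, from -0.0367 to 0.0524 for Smad4, from -0.0464 to 0.123 for the FGF receptor and from -0.074 to 0.198 for the Notch-like EGF-related receptor. It ranged from -0.31 to 0.0234 for the more abundant patched domain 3 row and from -0.305 to 0.0419 for patched domain 1, and without control replicate 2 and asarone replicate 2 it was -0.38 for that patched domain 3 row. Over the named rows the smallest adjusted p in all alternatives was 0.677, and the causes were not tested. The counts by best hit were alternatives chosen after seeing the data, and the count of planthopper-hit rows higher in treated insects ran from 5 to 15 on leaving out 1 library. Depth limits these values to an unknown extent.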
